A study of Mus musculus with 11 samples.

Results

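The genes described here encode the subunits of the mitochondrial respiratory chain and the ATP synthase. They were chosen by symbol: Ndufa followed by a digit, Ndufab1, and the Ndufb, Ndufc, Ndufs and Ndufv genes for complex I, Sdha to Sdhd for complex II, the Uqcr genes and Cyc1 for complex III, Cycs for cytochrome c, Cox4 to Cox8 for complex IV, and the Atp5 genes for complex V. This rule found 85 of the 15274 genes in the table, with 37 in complex I, 4 in complex II, 9 in complex III, 1 for cytochrome c, 17 in complex IV and 17 in complex V. Of these, 84 passed the filter on low values (at least 10 normalised counts in at least 2 libraries), and Cox7b2 did not. The symbols also took in 4 genes that are not settled subunits of their complex, Ndufa4l2, Cox7a2l, Atp5s and Atp5sl. Ndufa4 was kept with complex I by its symbol, although its protein was later assigned to complex IV. No mitochondrially encoded gene was in the table, so all members are nuclear.

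The study sequenced RNA from hearts of mice of 8 weeks, with day 7 in the library titles. The groups were uninjured and injured heart regions of the strain C57BL/6J, called B6 (3 libraries of each), and of the strain C3H/HeJ, called C3H (3 uninjured and 2 injured). No genotype other than the strain and no agent was labelled in any group, and the labels do not say by what means the injury was made. The labels number the mouse, so that each library is 1 region of 1 animal, and 3 B6 and 2 C3H animals gave both regions.

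Electrons from NADH enter the chain at complex I and those from succinate at complex II. They pass by ubiquinone to complex III, by cytochrome c to complex IV and so to oxygen, and the protons that complexes I, III and IV pump drive ATP synthesis in complex V. The heart depends on this pathway and is dense in mitochondria, and its cardiomyocytes use muscle forms of several complex IV subunits in place of the forms found in most tissues.

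The values are the authors' normalised counts, read counts divided by 1 size factor for each library. Reads recovered from them numbered 9699985 to 22138459 in each library, with uninjured B6 library 2 the lowest. All 18 cardiomyocyte markers listed were above 0 in every library. Of 9 skeletal muscle markers 8 were measured, and their summed level of 122 to 580 normalised counts was 0.000681% to 0.00311% of a library. Xist ranged from 3.14 to 12.2 in B6 and from 1840 to 8478 in C3H, and Ddx3y, a Y-linked gene, from 1429 to 2221 in B6 and from 0.888 to 3.46 in C3H. Strain and sex therefore cannot be told apart, which touches each comparison between B6 and C3H here, including the difference of the injury effects.

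The members held a smaller part of the RNA in injured regions, and the gap was widest in C3H. Their summed share of all normalised counts was 7.79%, 8.81% and 5.62% in uninjured B6 libraries 1 to 3 and 6.18%, 4.93% and 3.97% in injured B6. It was 5.10%, 6.22% and 7.52% in uninjured C3H and 2.50% and 2.08% in injured C3H. Both injured C3H libraries lay below all 9 others, while injured B6 library 1 lay above uninjured B6 library 3, so the B6 groups overlapped. In these pieces of tissue, fewer cells of a type and less RNA per cell cannot be told apart.

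**Figure D1:**
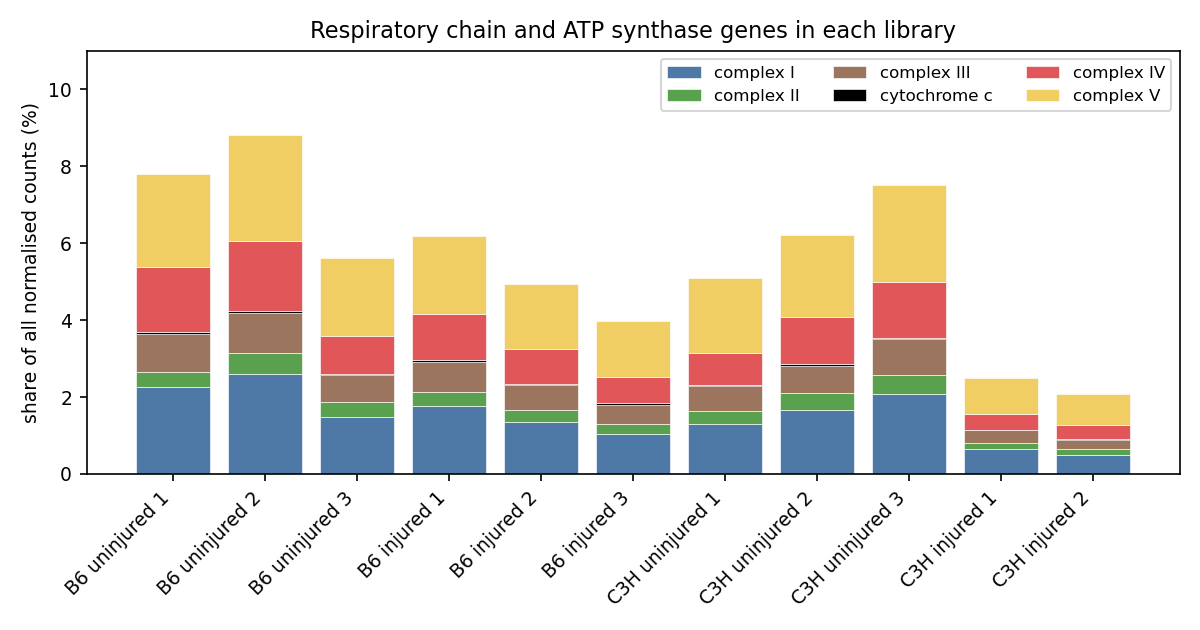
Share of all normalised counts (%, vertical axis) held by the 85 genes in each of the 11 libraries (horizontal axis), with bars stacked by complex. Injured C3H libraries reach 2.50% and 2.08%, and the uninjured libraries of both strains reach 5.10% to 8.81%.

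The stacked bars by library keep much the same order of complexes in each group. Complex I held 1.29% to 2.61% of counts in the uninjured libraries, 1.04% to 1.77% in injured B6 and 0.501% to 0.644% in injured C3H. Complex V held 1.96% to 2.75%, 1.45% to 2.03% and 0.814% to 0.931% in the same order, and complex IV 0.834% to 1.82%, 0.684% to 1.19% and 0.361% to 0.415%.

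In C3H, transcripts of every complex were lower in the injured region. Of the 84 genes tested, 80 were called lower and 0 higher (limma, Benjamini-Hochberg adjusted p under 0.05 over 14751 genes). Of all genes tested 15.4% were called lower. The median change was -1.85 on the log2 scale, which is 27.8% of the uninjured level, with a range from -2.61 to 0.81, and the median over all genes was 0.01. The 4 genes not called were Cox6a1, Cox8a, Cox6b2 and Ndufa4l2. Both injured libraries lay below all 3 uninjured ones for 82 of 84 genes, the exceptions being Cox6b2 and Ndufa4l2, against 29.7% of all genes tested. Without uninjured C3H library 3 the count was 74, where 1456 of the 14751 genes tested were called lower. The median of the members was -1.65 without injured C3H library 2, which leaves 1 library in that group. Some of the calls named below were lost in that fit.

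In B6, 83 of the 84 genes were lower in the injured region but 0 were called (adjusted p from 0.364 to 0.999, limma), and in that comparison 0.0136% of all genes tested were called in either direction. The count was also 0 with edgeR's quasi-likelihood test, with DESeq2 and with animal as a fixed or random block. At an unadjusted p under 0.05, 64 members were lower, where 6.54% of all genes were. That unadjusted count was 5 without uninjured B6 library 2, 6 without injured library 3, 21 without uninjured library 1 and 27 without injured library 2. It was 21 with quantile normalisation. The shares of all genes under that p in these fits are not given here, so these counts are not read against them. The median change was -0.86, or 55.0% of the uninjured level, with a range from -1.17 to 0.00. Quantile normalisation moved the median to -0.54, and 26 of the 33 B6 changes of genes chosen to be named moved by over 1.5 times, none of them called. Only 12 members had all injured B6 libraries below all uninjured ones, against 7.69% of all genes tested. These were Ndufa9, Ndufa10 and Ndufs1 of complex I, Sdha, Sdhc and Sdhd of complex II, Cyc1, Uqcrc2 and Uqcrfs1 of complex III, and Atp5a1, Atp5b and Atp5s of complex V. The median member level differed between the uninjured B6 libraries themselves, from 12.79 to 13.84 on the log2 scale, a gap wider than the median change after injury.

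Within animals the direction was shared. The injured region had the lower value for 84, 84 and 82 of 84 genes in B6 mice 1, 2 and 3, and for 83 and 84 in C3H mice 1 and 2. The median change was -0.51 in B6 mouse 1, -1.32 in mouse 2 and -0.73 in mouse 3, and -1.30 in C3H mouse 1 and -2.05 in mouse 2. The change in B6 mouse 2 was thus as large as that in C3H mouse 1, and its uninjured region is the library of lowest depth. In all 3 B6 animals 82 members were lower, where 24.2% of all genes tested were, and the same 82 were lower in all 5 animals, with Cox6b2 and Ndufa4l2 the exceptions.

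**Figure D2:**
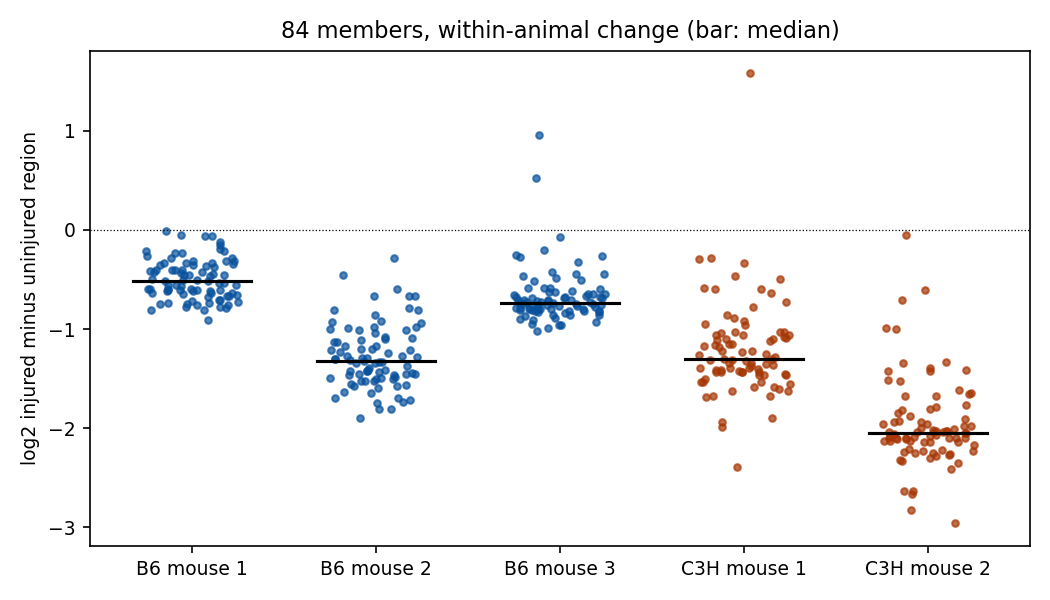
Injured minus uninjured region of the same mouse (log2, vertical axis) for 84 genes, 1 point a gene, in 5 mice (horizontal axis), with a bar at the median. Medians run from -0.51 in B6 mouse 1 to -2.05 in C3H mouse 2. The quartiles of B6 mouse 2 (-1.49 and -1.09) and C3H mouse 1 (-1.44 and -1.05) are close. Their points run from -1.90 to -0.29 and from -2.39 to 1.58.

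Whether C3H fell further than B6 was tested as the difference of the injury effects, which uses the same libraries as both effects. The median difference over members was -0.97 and 83 of 84 differences were negative, but 0 members were called with limma or edgeR, where 1.57% of all genes tested were called in either direction with limma. At an unadjusted p under 0.05, 28 members were lower, against 5.9% of all genes. This count was 9 without injured B6 library 1, 9 without uninjured C3H library 3 and 14 without uninjured B6 library 3. It was 49 without injured B6 library 3, 50 without uninjured B6 library 2 and 53 without uninjured C3H library 1. The count also fell without injured C3H library 2, which leaves 1 library in that group. The shares of all genes under that p in these fits are not given here, so these counts are not read against them. With animal as a fixed block 3 members were called lower, Atp5k (-1.65, adjusted p = 0.0340), Uqcrb (-1.32, adjusted p = 0.0353) and Uqcr11 (-1.41, adjusted p = 0.0384), where 0.366% of all genes were. With animal as a random block 5 were, Uqcrb, Atp5k, Atp5sl, Cox8b and Uqcr11, against 1.33%. DESeq2 on the recovered reads called 7, Ndufa10, Cox8b, Atp5b, Atp5sl, Cyc1, Atp5k and Uqcrb, against 1.21%. Atp5k and Uqcrb were called in these 3 fits, and all genes named in this paragraph were picked from their results.

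Between uninjured regions no member passed the test. Of the 84 members, 0 were called between C3H and B6 (limma), and the same held with edgeR, DESeq2 and animal as a random block, where 3.1% of all genes tested were called in either direction with limma. At an unadjusted p under 0.05, 5 members were lower in C3H (Cox5b, Cox6b2, Ndufa12, Ndufb4 and Ndufc2, named after their values were seen) and Atp5sl was higher, against 9.4% of all genes lower. The median difference was -0.28. It moved to -0.06 without uninjured B6 library 2, -0.09 without uninjured C3H library 1, -0.46 without uninjured C3H library 3 and -0.60 without uninjured B6 library 3, and in the last case Ndufa12, Cox6b2 and Cox5b were called lower.

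In injured regions 31 members were called lower in C3H than in B6 and 0 higher (limma), where 3.34% of all genes tested were called lower. The median difference was -1.29, or 40.9% of the B6 level, and both C3H libraries lay below all 3 B6 libraries for 83 of 84 genes (all but Cox6b2), against 24.2% of all genes tested. The 31 genes were 15 of complex I, 1 of complex II, 3 of complex III, Cycs, 5 of complex IV and 6 of complex V. Among complex I genes called here, 15 were of the 29 accessory subunits and 0 of the 7 core subunits. The 29 include Ndufa4, kept here by its symbol, which was called (adjusted p = 0.0392, limma). The median difference was -1.05 for core and -1.37 for accessory subunits, and all 7 core subunits had an unadjusted p under 0.05. In complex V, 1 group held Fo and other subunits, among them Atp5f1, Atp5h and Atp5j, and 6 of its 9 genes were called. The other group held the catalytic part F1 with its central stalk and Atp5o, and 0 of its 6 genes were called. The medians were -1.46 and -1.05, and all 6 genes of the F1 group had an unadjusted p under 0.05. Whether accessory and core genes or the groups of complex V differed was not tested. The count of 31 rested on single libraries. It was 4 without injured B6 library 1 (Uqcrb, Cox7a1, Cox5b and Ndufa12) and 5 without injured B6 library 2 (the same 4 and Atp5k). It was 13 without uninjured B6 library 1 and 51 without uninjured B6 library 3. The count also fell without either injured C3H library, which leaves 1 in that group. The shares of all genes called in these fits are not given here, so the counts are not read as a result about the members. With 1 library left out the median difference ran from -1.50 to -1.05.

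The injury effects of the complexes were close to each other. For complexes I to V the medians in C3H were -1.87, -1.71, -1.82, -1.80 and -1.81, with Cycs at -1.72, and in B6 they were -0.89, -0.80, -0.77, -0.89 and -0.83, with Cycs at -0.81. Called lower in C3H (limma) were 36 of 37 genes of complex I, 4 of 4 of complex II and 9 of 9 of complex III. So were 13 of 16 of complex IV and 17 of 17 of complex V, where 15.4% of all genes tested were. Core and accessory subunits of complex I had medians of -1.80 and -1.90 in C3H and -0.88 and -0.89 in B6. The medians of F1 with its central stalk and Atp5o, and of Fo and other subunits, were -1.72 and -1.87 in C3H and -0.73 and -0.84 in B6.

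**Figure D3:**
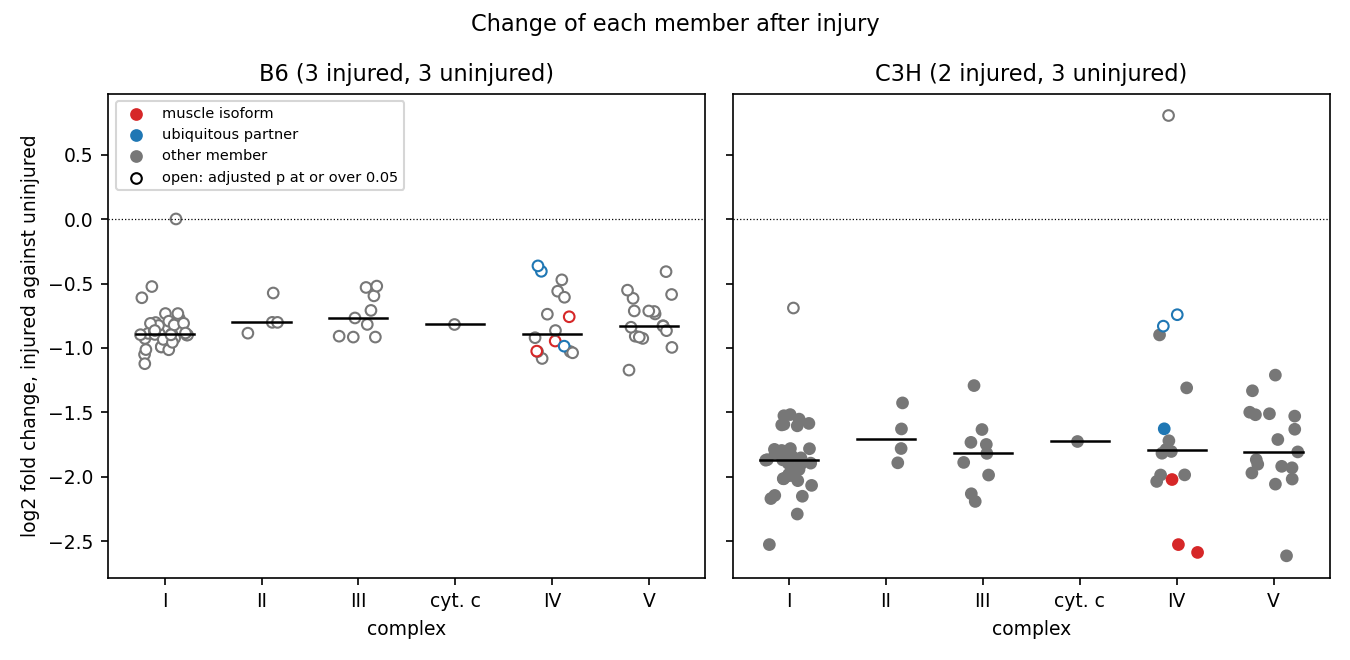
Log2 fold change after injury (vertical axis) of each of the 84 genes by complex (horizontal axis), for B6 on the left and C3H on the right; filled points passed an adjusted p of 0.05 in limma and bars are medians. The bars of the 5 complexes lie between -0.77 and -0.89 in B6 and between -1.71 and -1.87 in C3H, with Cox7a1 and Cox8b lowest in complex IV and Cox6a1 and Cox8a among the highest there in C3H.

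In complex I, Ndufv1 binds NADH and the flavin where electrons enter. Its normalised counts were 15831, 22281 and 11978 in uninjured B6, 12533, 8104 and 7734 in injured B6, 14752, 18861 and 23624 in uninjured C3H, and 4794 and 4631 in injured C3H. Both injured C3H libraries were low and set apart, and the log2 changes were -1.99 (SE 0.32, adjusted p = 0.00110) in C3H and -0.81 (SE 0.29, adjusted p = 0.364) in B6. Ndufs1, the largest iron-sulphur core subunit, had 11631, 21935 and 13732 in uninjured B6, 11541, 9553 and 6924 in injured B6, 12739, 13536 and 15637 in uninjured C3H, and 4968 and 4283 in injured C3H. All injured libraries of Ndufs1 lay below the uninjured libraries of their strain, with changes of -1.59 (SE 0.31, adjusted p = 0.00272) in C3H and -0.73 (SE 0.27, adjusted p = 0.364) in B6.

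Ndufs6, an accessory subunit of the part that takes up NADH, had the largest C3H change in complex I. Its counts were 5265, 6130.2 and 2585 in uninjured B6, 3010.4, 1829 and 1468 in injured B6, 2948, 3131 and 4580.0 in uninjured C3H, and 740.2 and 492 in injured C3H. Uninjured B6 library 3 was lower than injured B6 library 1, so that the B6 groups overlapped, and both injured C3H libraries were far below the rest. The changes were -2.53 (SE 0.40, adjusted p = 0.000919) in C3H and -1.12 (SE 0.35, adjusted p = 0.364) in B6. Ndufa4l2, a paralogue of Ndufa4 that hypoxia is known to induce, had the smallest change in complex I, with counts of 868, 616 and 369 in uninjured B6, 739, 504 and 532 in injured B6, 539, 271 and 629.5 in uninjured C3H, and 438 and 178 in injured C3H. Its groups overlapped in both strains, and it was lower in the injured region of 4 of 5 animals. The changes were -0.69 (SE 0.46, adjusted p = 0.275) in C3H and 0.00 (SE 0.41, adjusted p = 0.999) in B6.

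Complex II is the only complex with all subunits encoded in the nucleus, and all 4 genes fell in C3H. The flavoprotein Sdha had 21831, 34658 and 28809 in uninjured B6, 21016, 19805 and 15906 in injured B6, 24899, 24156 and 26229 in uninjured C3H, and 9599 and 9065 in injured C3H. The iron-sulphur protein Sdhb had 25991, 36439 and 17252 in uninjured B6, 20580.0, 14422 and 10408 in injured B6, 17686, 23996 and 31522 in uninjured C3H, and 7181 and 5694 in injured C3H. The injured C3H values of Sdha were under those of every other library, and the B6 groups were apart for Sdha and overlapped for Sdhb. Sdha changed by -1.43 (SE 0.27, adjusted p = 0.00232) in C3H and -0.57 (SE 0.24, adjusted p = 0.365) in B6, and Sdhb by -1.89 (SE 0.38, adjusted p = 0.00359) in C3H and -0.80 (SE 0.34, adjusted p = 0.365) in B6. The membrane anchors Sdhc and Sdhd changed by -1.78 (SE 0.33, adjusted p = 0.00237) and by -1.63 (SE 0.31, adjusted p = 0.00283) in C3H. In B6 their changes were -0.88 (SE 0.30, adjusted p = 0.364) and -0.80 (SE 0.28, adjusted p = 0.364). With quantile normalisation the C3H change of Sdha was -0.87 (adjusted p = 0.0135, limma).

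In complex III, Cyc1 encodes cytochrome c1, which hands electrons to cytochrome c. Its counts were 17514, 17789 and 14905 in uninjured B6, 13900.5, 11224 and 9888 in injured B6, 16885, 12914 and 22137 in uninjured C3H, and 6268 and 4122 in injured C3H. The groups did not overlap in either strain, and the changes were -1.73 (SE 0.29, adjusted p = 0.00139) in C3H and -0.53 (SE 0.26, adjusted p = 0.392) in B6. Uqcr11, a small subunit, had the largest C3H change of the complex, with counts of 11739.6, 11910.0 and 5669 in uninjured B6, 8604, 6319 and 4228 in injured B6, 7228, 6295 and 9906 in uninjured C3H, and 2252 and 1249 in injured C3H. Injured B6 library 1 lay above uninjured B6 library 3, and injured C3H library 2 was the lowest of all. The changes were -2.19 (SE 0.40, adjusted p = 0.00216) in C3H and -0.60 (SE 0.36, adjusted p = 0.463) in B6. Uqcrc2, a core protein, had the smallest, with counts of 17854, 23633 and 21624 in uninjured B6, 17154, 15594 and 11584 in injured B6, 19179.7, 18692 and 22844 in uninjured C3H, and 9188 and 7372 in injured C3H. Its groups did not overlap in either strain, and it changed by -1.29 (SE 0.26, adjusted p = 0.00365) in C3H and -0.52 (SE 0.23, adjusted p = 0.372) in B6; the C3H change had an adjusted p of 0.0572 without injured C3H library 2. Uqcrc1, the other core protein, and Uqcrfs1, the Rieske iron-sulphur protein, had C3H changes of -1.75 (SE 0.32, adjusted p = 0.00231) and -1.99 (SE 0.36, adjusted p = 0.00196). With quantile normalisation the C3H changes of Uqcrc1 and Uqcrc2 were -1.09 (adjusted p = 0.00697) and -0.76 (adjusted p = 0.0235), and the B6 change of Cyc1 was -0.10.

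Cycs, the gene of cytochrome c, had 9084, 11124 and 6261 in uninjured B6, 6365, 4823 and 3813 in injured B6, 5149.9, 6045 and 6569 in uninjured C3H, and 2188 and 1463 in injured C3H. Uninjured B6 library 3 was just under injured B6 library 1, and the injured C3H libraries were well under all others. The changes were -1.72 (SE 0.30, adjusted p = 0.00173) in C3H and -0.81 (SE 0.27, adjusted p = 0.364) in B6. Injured C3H lay at 36.6% of injured B6 (log2 difference -1.45, SE 0.30, adjusted p = 0.0153, limma).

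In complex V, Atp5b and Atp5a1 encode the catalytic beta and the alpha subunit of F1. Counts of Atp5b were 108809, 143069 and 114666 in uninjured B6, 95478, 81829 and 67765 in injured B6, 122102, 117467 and 143520.0 in uninjured C3H, and 45102 and 43696 in injured C3H. Counts of Atp5a1 were 83202, 118768 and 92061 in uninjured B6, 74642, 60384 and 56225 in injured B6, 108625, 96324 and 129199 in uninjured C3H, and 40073 and 36612 in injured C3H. For both genes the injured libraries lay below the uninjured ones in each strain, and the injured C3H libraries lay below all others. Atp5b changed by -1.52 (SE 0.33, adjusted p = 0.00558) in C3H and -0.58 (SE 0.30, adjusted p = 0.408) in B6, and Atp5a1 by -1.53 (SE 0.33, adjusted p = 0.00497) in C3H and -0.61 (SE 0.29, adjusted p = 0.384) in B6. Without injured C3H library 2 the adjusted p of the C3H changes was 0.0569 for Atp5b and 0.0570 for Atp5a1. With quantile normalisation the B6 change of Atp5b was -0.029 (adjusted p = 0.971) and that of Atp5a1 -0.38.

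Atp5k, the e subunit of Fo, which takes part in pairing ATP synthase units, had the largest C3H change of all members. Its counts were 6014, 5458 and 2301 in uninjured B6, 3504, 1845 and 1931 in injured B6, 3579, 3283 and 4236 in uninjured C3H, and 681 and 529 in injured C3H. Uninjured B6 library 3 was below injured B6 library 1, and the injured C3H libraries were the lowest by a wide margin. The changes were -2.61 (SE 0.39, adjusted p = 0.000757) in C3H and -0.87 (SE 0.35, adjusted p = 0.365) in B6. Between injured regions C3H was lower, with a log2 difference of -1.95 (SE 0.39, adjusted p = 0.0135, limma). The genes Atp5g1, Atp5g2 and Atp5g3 encode the same c subunit of the Fo ring with different leader peptides. All 3 fell in C3H, with changes of -1.87 (SE 0.38, adjusted p = 0.00385), -1.21 (SE 0.32, adjusted p = 0.0140) and -1.93 (SE 0.38, adjusted p = 0.00332), and Atp5g2 had the smallest change in the complex. Atp5g2 counts were 1709, 1920.4 and 1132 in uninjured B6, 1282, 973 and 946 in injured B6, 1053, 2097 and 1995 in uninjured C3H, and 762 and 657 in injured C3H, and its B6 groups overlapped while its C3H groups did not. The Atp5g2 call in C3H was lost without injured C3H library 2 (adjusted p = 0.110), injured C3H library 1 (0.0503) or uninjured C3H library 3 (0.0523), and that of Atp5g1 without injured C3H library 2 (0.0606).

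In complex IV, Cox7a1 and Cox8b had the largest changes in C3H (-2.59 and -2.53), followed by Cox5a (-2.04) and Cox6a2 (-2.02), and Cox8a and Cox6a1 were among the smallest (-0.83 and -0.74). In B6 the largest change of the complex was that of Cox5a (-1.08, adjusted p = 0.364, limma). Cox6a2, Cox7a1 and Cox8b are the forms of subunits 6a, 7a and 8 found in heart and skeletal muscle, and Cox6a1, Cox7a2 and Cox8a those found in most tissues. The promoters of Cox7a1, Cox8b, Cox6a1 and Atp5k are shown because these genes mark the extremes of the C3H changes among the members with a match in the promoter table: 3 of the largest and 1 of the smallest. Each is the 250 bases before the gene's start in RefSeq on GRCm38.p6, read 5′ to 3′ on the gene's strand, at chr7:30183921-30184170 (plus strand) for Cox7a1, chr7:140900447-140900696 (minus) for Cox8b, chr5:115348959-115349208 (minus) for Cox6a1 and chr5:108434400-108434649 (minus) for Atp5k. Capitals mark matches, on either strand, to motifs known for regulators of respiratory genes.
Cox7a1: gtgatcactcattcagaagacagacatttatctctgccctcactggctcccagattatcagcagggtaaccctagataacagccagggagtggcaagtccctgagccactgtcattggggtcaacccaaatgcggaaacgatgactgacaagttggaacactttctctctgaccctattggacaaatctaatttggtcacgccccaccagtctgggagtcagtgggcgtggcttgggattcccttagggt
Cox8b: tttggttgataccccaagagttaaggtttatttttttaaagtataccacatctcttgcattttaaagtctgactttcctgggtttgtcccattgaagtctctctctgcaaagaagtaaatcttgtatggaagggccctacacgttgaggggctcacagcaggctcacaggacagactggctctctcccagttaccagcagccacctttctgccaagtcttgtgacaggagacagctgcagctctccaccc
Cox6a1: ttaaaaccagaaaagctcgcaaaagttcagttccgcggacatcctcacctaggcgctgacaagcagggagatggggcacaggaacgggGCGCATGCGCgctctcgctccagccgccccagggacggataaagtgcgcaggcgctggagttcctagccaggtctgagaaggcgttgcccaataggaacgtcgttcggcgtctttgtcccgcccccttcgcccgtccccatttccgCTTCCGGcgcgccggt
Atp5k: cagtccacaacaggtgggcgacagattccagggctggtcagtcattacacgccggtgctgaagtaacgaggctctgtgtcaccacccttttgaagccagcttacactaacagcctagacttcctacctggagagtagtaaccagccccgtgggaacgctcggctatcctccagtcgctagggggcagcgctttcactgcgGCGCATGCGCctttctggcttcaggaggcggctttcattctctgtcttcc

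The table's windows run on for 50 bases after the start, to 300 in all, and 1 window stood for each of these 4 genes. The Cox7a1 and Cox8b windows held none of the motifs searched. The capitals GCGCATGCGC in Cox6a1 and Atp5k are matches to the NRF1 motif on both strands that overlap each other, and CTTCCGG in Cox6a1 is an ETS motif on the opposite strand. Atp5k also held an ETS and an estrogen-related receptor motif in the 50 bases after its start, which are not printed. Of the 85 genes, 70 matched the promoter table, with 76 windows. The NRF1 letters GCGCATGC stood in 14.5% of these windows and in 2.71% of all 32851 windows of 300 bases, and the ETS letters CCGGAAG in 21.1% and 8.86%. For YY1, with the letters AAGATGGCG, the shares were 11.8% and 1.40%, and for the short core site of estrogen-related receptors, AAGGTCA, 9.21% and 4.72%. These are matches of letters on either strand, given as a description of the windows.

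Cox6a2 counts were 39699, 45029 and 23337 in uninjured B6, 25012, 15990.4 and 14584 in injured B6, 23760.2, 38504 and 47159 in uninjured C3H, and 9064 and 8225 in injured C3H. Cox6a1 counts were 3637, 3490.2 and 1647 in uninjured B6, 2990.0, 1929 and 1564 in injured B6, 1923, 2321 and 3378 in uninjured C3H, and 1531 and 1425 in injured C3H. The muscle form was low in both injured C3H libraries, whereas Cox6a1 was lower there by a small margin only. Cox6a2 changed by -2.02 (SE 0.38, adjusted p = 0.00250) in C3H and -0.95 (SE 0.34, adjusted p = 0.364) in B6, and Cox6a1 by -0.74 (SE 0.37, adjusted p = 0.153) in C3H and -0.40 (SE 0.34, adjusted p = 0.585) in B6.

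Cox7a1 had 26073, 31777 and 14393 in uninjured B6, 17045, 10144 and 8191 in injured B6, 12625, 12263 and 19261 in uninjured C3H, and 3303 and 1733 in injured C3H. Cox7a2 had 12118, 14021 and 6638 in uninjured B6, 7190.0, 5700.1 and 3541 in injured B6, 4376, 8780.3 and 8926 in uninjured C3H, and 2406 and 2131 in injured C3H. Injured C3H library 2 had the lowest value of both genes, and it was the 1 library in which Cox7a1 was below Cox7a2. Cox7a1 changed by -2.59 (SE 0.42, adjusted p = 0.00112) in C3H and -1.02 (SE 0.38, adjusted p = 0.364) in B6, and Cox7a2 by -1.63 (SE 0.40, adjusted p = 0.0106) in C3H and -0.99 (SE 0.36, adjusted p = 0.364) in B6, with an adjusted p of 0.0849 for Cox7a2 in C3H without injured C3H library 2. Between injured regions Cox7a1 was lower in C3H, with a log2 difference of -2.23 (SE 0.42, adjusted p = 0.0101, limma), the largest such difference among members.

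Cox8b had 17508, 18146 and 7988 in uninjured B6, 10672, 8501 and 5788 in injured B6, 7637, 13233 and 15574 in uninjured C3H, and 2392 and 1700.2 in injured C3H. Cox8a had 3139, 3198 and 1786 in uninjured B6, 2708, 2009.5 and 1551 in injured B6, 1822, 3054 and 3506 in uninjured C3H, and 1498 and 1529 in injured C3H. The injured C3H values of Cox8b were far below every other library, and those of Cox8a just below the uninjured C3H ones. Cox8b changed by -2.53 (SE 0.42, adjusted p = 0.00122) in C3H and -0.76 (SE 0.37, adjusted p = 0.392) in B6, and Cox8a by -0.83 (SE 0.34, adjusted p = 0.0844) in C3H and -0.36 (SE 0.30, adjusted p = 0.590) in B6. The change of Cox8a in C3H was called in 4 of the other fits: DESeq2 (adjusted p = 0.0429), animal as a random block (0.0365), and limma without uninjured B6 library 3 (0.0481) or without uninjured C3H library 1 (0.0247).

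The ratio of each pair within a library does not depend on the scaling of that library by a size factor, apart from the pseudocount of 1 added on the log scale. It was tested for 8 pairs of isoforms with an exact permutation test, two-sided, of the log2 ratio in injured against uninjured regions averaged over both strains, with labels permuted within a strain (200 arrangements, smallest possible p 0.005, Benjamini-Hochberg over 8 pairs). Cox6a2 over Cox6a1 was 10.9, 12.9 and 14.2 in uninjured B6, 8.37, 8.29 and 9.33 in injured B6, 12.4, 16.6 and 13.96 in uninjured C3H, and 5.92 and 5.77 in injured C3H. All injured libraries were under all uninjured ones, and the ratio fell by 0.91 on the log2 scale (exact permutation p = 0.005, the smallest possible, adjusted p = 0.02), lower in 5 of 5 animals. With quantile normalisation the change of this ratio was -0.58 (exact permutation, adjusted p = 0.04). Cox8b over Cox8a was 5.58, 5.67 and 4.47 in uninjured B6, 3.94, 4.23 and 3.73 in injured B6, 4.19, 4.33 and 4.44 in uninjured C3H, and 1.60 and 1.11 in injured C3H. It fell by 1.05 (exact permutation p = 0.005, adjusted p = 0.02), again lower in 5 of 5 animals and apart in both strains. The permutation did not use the pairing of regions by animal. Flipping signs within animals, which allows no p under 0.0625, gave an adjusted p of 0.125 for Cox6a2/Cox6a1 and for Cox8b/Cox8a (exact). Cox7a1 over Cox7a2 was 2.15, 2.27 and 2.17 in uninjured B6, 2.37, 1.78 and 2.31 in injured B6, 2.89, 1.40 and 2.16 in uninjured C3H, and 1.37 and 0.813 in injured C3H. This ratio was lower in 3 of 5 animals and its change of -0.50 did not pass (exact permutation p = 0.16, adjusted p = 0.183).

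**Figure D4:**
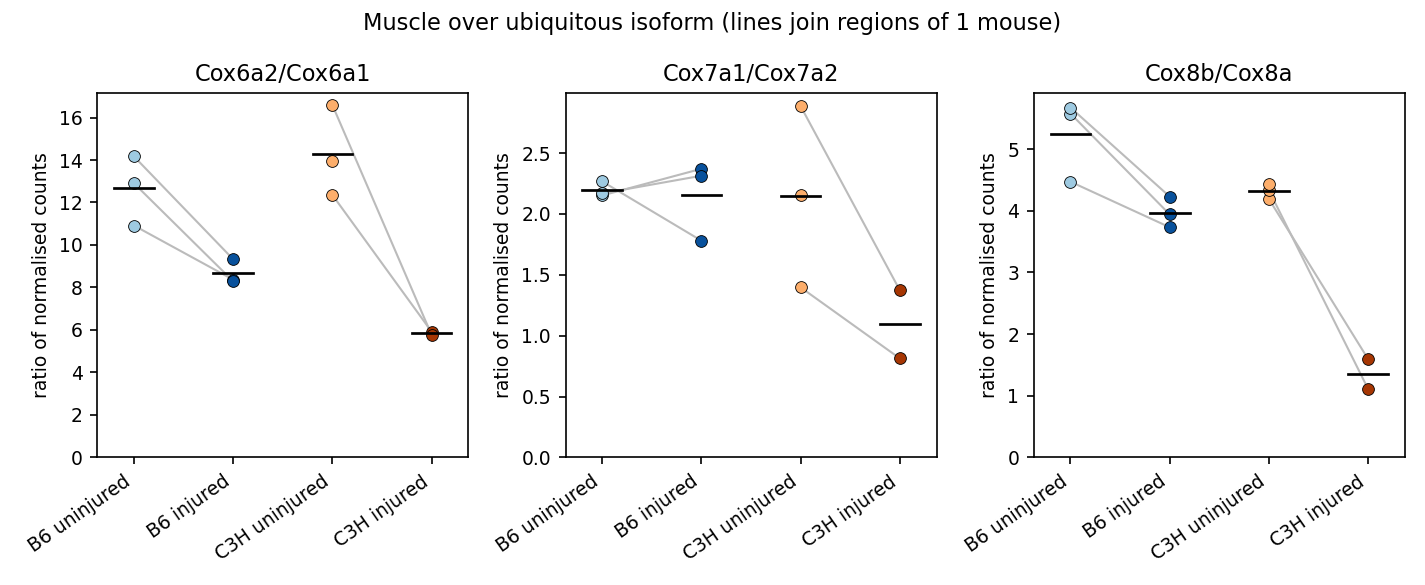
Ratio of normalised counts of the muscle isoform to its ubiquitous partner (vertical axis, from 0) in each library by group (horizontal axis), with bars at the group mean and lines between regions of the same mouse. Cox6a2/Cox6a1 and Cox8b/Cox8a fall along all 5 lines, and Cox7a1/Cox7a2 along 3 of 5.

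By strain, the log2 ratio changed by -0.54 in B6 and -1.28 in C3H for the Cox6a pair, by -0.04 and -0.96 for the Cox7a pair, and by -0.40 and -1.70 for the Cox8 pair. Whether these changes differed between strains was not tested. Per length of the exons, Cox6a2 stood at 9.17 to 11.9 times Cox6a1 in uninjured B6 and at 4.85 to 4.97 times in injured C3H, and Cox8b at 6.83 to 8.67 times Cox8a and at 1.70 to 2.44 times in the same groups. The muscle form thus remained the more abundant one per length in both pairs.

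All 5 other pairs had a higher ratio after injury, and 3 of them passed (exact permutation, adjusted p under 0.05). Atp5g2 over Atp5g3 rose by 0.55 (exact permutation p = 0.015, adjusted p = 0.04), Cox4i2, the form known from lung and hypoxia, over Cox4i1 by 0.47 (p = 0.03, adjusted p = 0.048), and Ndufa4l2 over Ndufa4 by 1.03 (p = 0.03, adjusted p = 0.048). Atp5g2 and Ndufa4l2 gained on their partner in 5 of 5 animals, and Cox4i2 lost in 1 of 5. These 3 calls were each lost without some single library and with quantile normalisation, where the adjusted p was 0.38, 0.38 and 0.32 and the Cox4i2 ratio turned to -0.17. Cox6b2, the testis form, over Cox6b1 had a change of 1.49 (exact permutation p = 0.045, adjusted p = 0.06), and Atp5g1 over Atp5g3 one of 0.08 (exact permutation p = 0.235, adjusted p = 0.235).

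The values behind these ratios differ widely in size. Cox4i1, the common form, had 73225, 90844 and 40214 in uninjured B6, 48563, 33161 and 24507 in injured B6, 47219, 59304 and 78236 in uninjured C3H, and 17558 and 16970.0 in injured C3H. Cox4i2 had 590.4, 442 and 260.4 in uninjured B6, 368, 322 and 215 in injured B6, 231, 255 and 458 in uninjured C3H, and 153 and 94.7 in injured C3H. Both had their lowest value in injured C3H library 2, and Cox4i1 changed by -1.80 (SE 0.41, adjusted p = 0.00665) in C3H and -0.92 (SE 0.37, adjusted p = 0.364) in B6 and Cox4i2 by -1.31 (SE 0.41, adjusted p = 0.0293) in C3H and -0.47 (SE 0.36, adjusted p = 0.559) in B6. Without injured C3H library 2 the adjusted p in C3H was 0.0585 for Cox4i1 and 0.235 for Cox4i2, and without uninjured C3H library 3 it was 0.104 for Cox4i2. Cox6b2 ranged only from 10.9 to 85.03 over the 11 libraries, and its groups overlapped in both strains. Cox5a, another nuclear subunit, changed by -2.04 (SE 0.44, adjusted p = 0.00510) in C3H and -1.08 (SE 0.39, adjusted p = 0.364) in B6, and the C3H adjusted p was 0.0560 without injured C3H library 2. In C3H Ndufa4 changed by -1.87 (SE 0.45, adjusted p = 0.00881), with an adjusted p of 0.0871 without that library, and Cox6b1 by -1.99 (SE 0.36, adjusted p = 0.00207).

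Other genes of the pathway followed with smaller values. Of 50 assembly factors of the complexes, which build them but are no part of them, 48 were measured and tested. In C3H 41 of 48 were called lower after injury and 0 higher, with a median of -1.18, where 15.4% of all genes tested were called lower. In B6 0 assembly factors were called (limma, with 18 lower at an unadjusted p under 0.05) and the median was -0.52. Both medians lie nearer 0 than those of the subunits (-1.85 and -0.86), a difference that was not tested. Between injured regions 11 of 48 were called lower in C3H, where 3.34% of all genes tested were.

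The medians of cardiomyocyte markers fell as those of the members did, and the medians of macrophage and fibroblast markers rose. Of 18 cardiomyocyte markers 15 were called lower in C3H (median -1.56), where 15.4% of all genes tested were called lower. In B6 0 cardiomyocyte markers were called (median -0.69, with 5 lower at an unadjusted p under 0.05 in limma). The summed share of counts of the 18 markers was 12.4% to 13.1% in uninjured B6, 8.54% to 10.2% in injured B6, 12.5% to 14.5% in uninjured C3H and 5.01% to 5.78% in injured C3H. None was at 0 in any library. The members' sum over that of the cardiomyocyte markers was 0.454 to 0.672 in uninjured B6, 0.431 to 0.608 in injured B6, 0.356 to 0.519 in uninjured C3H and 0.414 to 0.432 in injured C3H, so that the groups overlapped in both strains. By animal, the ratio was lower in the injured region of all 3 B6 mice (0.627 and 0.608, 0.672 and 0.577, and 0.454 and 0.431 in uninjured and injured regions of mice 1 to 3). It was higher in C3H mouse 1 (0.356 and 0.432) and lower in C3H mouse 2 (0.497 and 0.414).

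**Figure D5:**
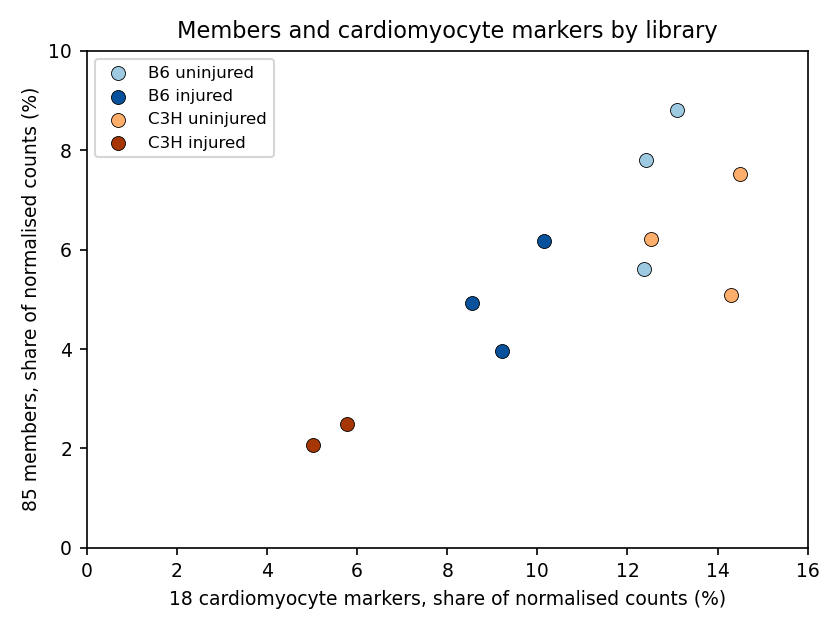
Share of normalised counts (%) of the 85 genes (vertical axis) against that of 18 cardiomyocyte markers (horizontal axis), 1 point a library, coloured by group. The injured C3H libraries lie lowest on both axes, at 2.08% to 2.50% and 5.01% to 5.78%.

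Of 14 macrophage markers 13 were called higher in C3H (median 2.89), where 2253 of all 14751 genes tested were called higher. In B6 0 macrophage markers were called (median 0.71, with 6 at an unadjusted p under 0.05 in limma). Their share was 0.155% to 0.222% in uninjured B6, 0.300% to 0.403% in injured B6, 0.0778% to 0.142% in uninjured C3H and 0.569% to 0.970% in injured C3H. Of 9 fibroblast markers 6 were called higher in C3H (median 2.12). In B6 0 fibroblast markers were called (median 0.71, with 0 at an unadjusted p under 0.05 in limma). Their shares were 0.989% to 2.28%, 2.80% to 3.09%, 0.268% to 1.41% and 3.53% to 4.97% in the same order of groups. No macrophage or fibroblast marker was at 0 in any library. Of 7 endothelial markers 2 were called lower in C3H (median -0.38), where 15.4% of all genes tested were called lower. Their shares were 0.0808% to 0.151% over all libraries. Of 5 smooth muscle markers 1 was called lower and 1 higher in C3H (median 0.59), with shares of 0.0310% to 0.109%. In B6 0 endothelial markers were called (median 0.10, with 0 at an unadjusted p under 0.05 in limma). For smooth muscle markers in B6 0 were called (median 1.05, with 3 at an unadjusted p under 0.05). Of 6 adipocyte markers 2 were measured, and their summed level was 206 to 690 normalised counts. The part of these cell types in the change of the members was not tested.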

How the data were processed

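The 11 libraries hold total RNA of heart regions. The submitters' processing notes name TopHat2 2.0.11 and HTSeq 0.6.1, an aligner and a read counter, then DESeq for normalisation, and mm9 as the genome. The annotation, strandedness and treatment of reads with several matches are not stated in the labels or notes, so counts of members with near-identical copies are uncertain. Build mm9 is of B6, and C3H reads over variants can be undercounted. The authors' deposited signal is a gene's reads divided by the library's size factor; 100% of values were whole multiples of 1 step (tolerance 1e-06), which gave back the reads for edgeR and DESeq2.

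A gene was tested if 2 or more libraries reached 10 (14751 tested, 523 not), and values were fitted as log2(value + 1) with limma 3.58.1 in R 4.3.3, with 4 group means over all libraries, an empirical Bayes trend and 7 residual degrees of freedom, and p-values were adjusted by Benjamini-Hochberg over all genes tested (threshold 0.05). Fold changes are on that scale and understate those of low genes. The fit was tested on simulated data. Alternatives were edgeR 4.0.16, DESeq2 1.42.0, other scalings, pseudocounts and filters, animal as a block, and leaving out each library. Where this left a group with 1 library, that library was assumed to vary like the others.

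Mouse numbers in the labels pair regions of 1 heart in 5 animals. Residuals of paired regions correlated at 0.276, -0.0140 and 0.524 in B6 and 0.305 and 0.575 in C3H, and at 0.392 in the random block fit. The fixed block left 3 residual degrees of freedom.

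Members and lists were chosen with earlier results of these data known. Genes chosen to be named were the isoform pairs, the catalytic or defining subunits, the largest and smallest C3H change in complexes I, III, IV and V, and the 3 largest called differences between strains. Library values are printed for those the results turn on, and 1 gene chosen is not reported here. Promoter windows are of RefSeq GRCm38.p6; of the 50 assembly factors 1 was matched by a RefSeq synonym, and Sco2 and Pet117 were not analysed here.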

Additional observations from a re-analysis of the deposited data

How the results depend on the processing

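Pseudocounts of 0.5 and 8, no filter on low values and TMM scaling changed no count of members called by over 1.5 times. For injury in C3H the count was 39 to 81 when 1 library was left out. The difference of the injury effects gave 7 members with DESeq2, 3 with animal as a fixed replicate block and 5 with a random replicate block. These blocks changed no other count of members by over 1.5 times, and no fixed block could be fitted to the comparisons between strains. C3H against B6 in uninjured regions gave 0 to 3 with 1 library left out. In injured regions it gave 61 with quantile normalisation, 70 with DESeq2 and 63 when only the groups compared were fitted. The shares of all genes called in these fits are not given here, so the counts are not read as a result about the members. With 1 library other than an injured C3H one left out it gave 4 to 51. Quantile normalisation moved the median of all genes in C3H to -0.11 and that of the members to -1.54, and in B6 the members' median to -0.54. Flipping signs within animals (replicate block), which allows no p under 0.0625, gave -0.92 for Cox6a2/Cox6a1 and -1.04 for Cox8b/Cox8a (adjusted p = 0.125 for both, exact). With 1 library left out these ratios ran from -0.96 to -0.85 and from -1.18 to -0.92, with adjusted exact permutation p from 0.025 to 0.0444, and Cox7a1/Cox7a2 from -0.69 to -0.31. The Ndufa4l2 change in B6 turned to -0.020 with edgeR and -0.062 with DESeq2, and with 1 library left out ran from -0.33 (without uninjured library 3) to 0.29, with -0.17 without injured library 1. The Cox6a1 difference of injury effects turned to 0.034 without uninjured B6 library 3, and Cox6b2 between injured regions to -0.29 without injured C3H library 1, with a highest value of 0.39 without injured C3H library 2. With quantile normalisation Cox4i2/Cox4i1 turned to -0.17 and Atp5g1/Atp5g3 to -0.10. The cause was not tested. Levels of Cox6b2 and Cox7b2 were near the filter, and with 2 injured C3H libraries the spread of that group rests on 1 difference.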

Other observations

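Exon length and the size of the change were weakly related across members. The 41 genes under 1000 bases had medians of -0.89 in B6 and -1.94 in C3H, and the 43 longer ones -0.81 and -1.80. Spearman's rho between length and change was 0.264 in B6 and 0.307 in C3H over 84 members, which share libraries and depth and are not independent replicates.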
